A study of Danio rerio with 6 samples.

Results

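Potassium channel genes of the kcn families were examined in hindbrain cells of zebrafish embryos, sorted by a label of cranial motor neurons. A gene was a member if its Ensembl identifier mapped to a symbol beginning with kcn and it held at least 30 counts over the 6 libraries. Of 32520 genes in the count tables, 129 carried such a symbol and 80 of these reached 30 counts. The rule used the summed counts and not the response to treatment, but the set was chosen with earlier results of these data known. Just inside the minimum lay kcnh4a with 34 counts in all, and kcnq1.2 and KCNMB2 with 37 each. Just outside lay kcnq2a with 29 counts and kcnt2b with 27, while 8 kcn genes had no count in any library.

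The cells came from the posterior hindbrain of Tg(isl1:Kaede) embryos, in which regulatory sequence of the isl1 gene drives the fluorescent protein Kaede in cranial motor neurons, among other isl1-expressing cells. PTU, an inhibitor of pigment formation, was present at 0.2 mM in both groups. The RA group (replicates 6, 9 and 12) received 50 nM retinoic acid in DMSO starting at 24 hours post fertilization (hpf), and the DMSO group (replicates 1, 4 and 10) received the solvent alone. At 38 hpf, live Kaede-positive cells negative for DAPI were sorted, 4500 to 10000 per library, and their RNA was amplified before sequencing. The design asks how added retinoic acid, a vitamin A product that sets position along the hindbrain, alters gene expression in vagus motor neurons. The labels do not say whether replicates came from separate clutches, so p-values measure the spread between these libraries, which may in part be technical.

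Potassium channels let potassium ions leave or enter a cell down their electrochemical gradient, which sets the resting potential and ends the action potential. Their genes fall into structural classes. Voltage-gated channels (kcna, kcnb, kcnc, kcnd, kcnh, kcnq) open on depolarization, calcium- or sodium-activated channels (kcnm, kcnn, kcnt) link firing to ion entry, inward rectifiers (kcnj) hold the cell near rest, and tandem-pore channels (kcnk) carry leak current. Silent subunits (kcnf, kcng, kcns) form no channel alone and join kcnb subunits, and auxiliary proteins (kcnab, kcnip) bind the pore-forming subunits of the kcna and kcnd families. Motor neurons use many of these classes together, and several are known to be switched on as neurons mature.

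The RA libraries held 15971653 to 22349857 counted fragments and the DMSO libraries 20432411 to 23411427. Motor neuron markers were abundant in every library, with the 11 matched genes of the branchiomotor and cholinergic list summing to 4989 to 6182 CPM (counts per 1000000, with library totals scaled by TMM) in RA and 6765 to 9063 CPM in DMSO. Of the 11, 9 were lower in RA, against 47.4% of all tested genes. Only tbx20 passed the test described below, which called 0.799% of all tested genes. Erythrocyte markers summed to at most 0.557 CPM in RA, against 0.683, 0.0844 and 43.1 CPM in DMSO, where replicate 10 stood apart. Markers of other cells were present at 1741 to 2899 CPM in RA and 2270 to 2504 CPM in DMSO for progenitors and glia, at 338 to 528 and 390 to 663 CPM for interneurons, and at 144 to 210 and 135 to 177 CPM for cranial sensory neurons. Of the tested genes, 11 of 14 interneuron genes and 6 of 8 sensory neuron genes were lower in RA. None of them passed the test, which lies near the 0.799% called over all genes. Epidermis markers summed to 407, 873 and 162 CPM in RA (replicates 6, 9 and 12) and 291 to 440 CPM in DMSO. Muscle markers came to 922, 17.9 and 25.8 CPM in RA, with replicate 6 far above the others, and 155, 404 and 14.4 CPM in DMSO. Neural crest and pigment markers came to 91.6, 323 and 147 CPM in RA and 108 to 139 CPM in DMSO. RA replicate 9 was also the highest RA library for progenitor and glia, interneuron and sensory neuron markers. Vascular and mural markers summed to 8.15 to 32.1 CPM in RA and 78.6 to 91.4 CPM in DMSO, nearly all of it from kdrl in DMSO, where cdh5 was at 0 in 2 libraries. The marker kdrl passed the test and was lower in RA (log2 fold change -2.73, SE 0.37 and adjusted p = 0.0197 in edgeR). The part of these cells in the channel levels was not tested, and in such bulk samples fewer cells of a type and less RNA per cell cannot be told apart.

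Potassium channel transcripts were rare in these libraries. The 80 genes together took 0.0425% to 0.0458% of the counts in RA and 0.0486% to 0.0602% in DMSO. To compare genes, CPM were divided by the annotated exonic length in kilobases. On this scale the median of the 80 genes was 0.94 CPM per kilobase in RA and 0.903 in DMSO, and 18.4% of all tested genes lay below that DMSO median. A mean of 1 CPM per kilobase was reached by 37 of the 80 genes in RA and by 37 in DMSO. The counts were concentrated in few genes, with 56.7% of the summed DMSO CPM in the 10 most abundant.

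**Figure D1:**
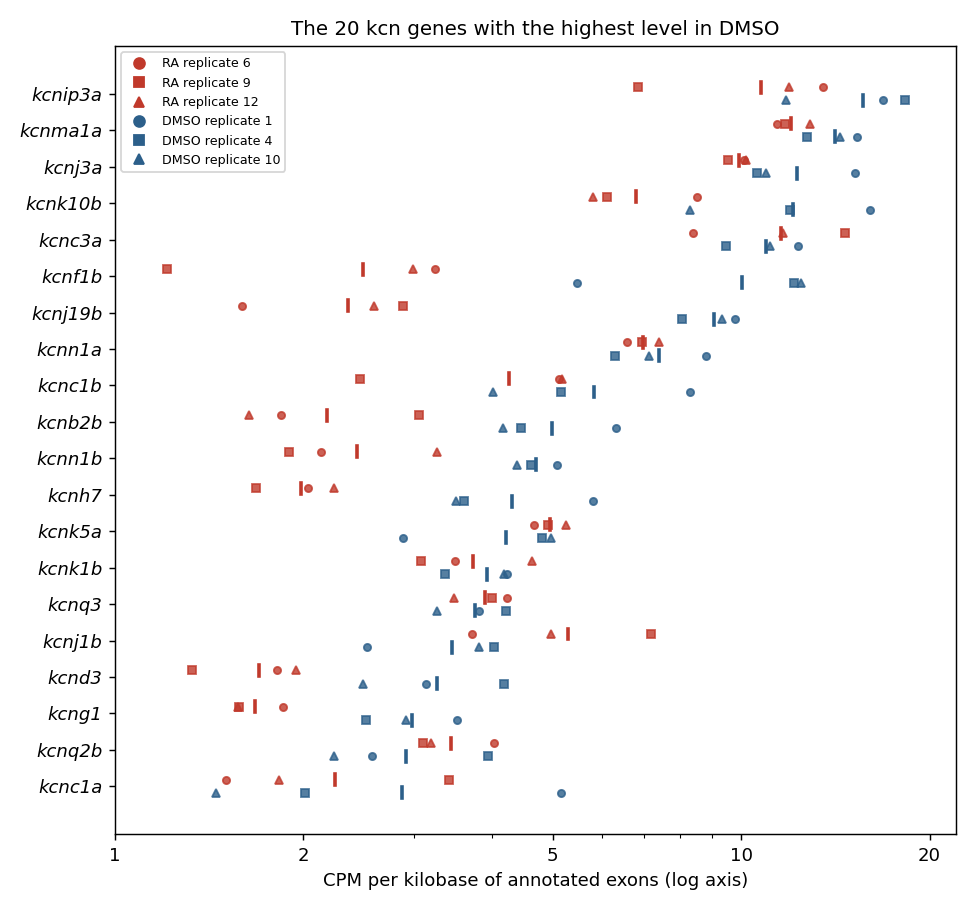
Level of the 20 kcn genes that were highest in DMSO, in CPM per kilobase of annotated exons on a log axis. Each point is a library (red RA, blue DMSO) and each bar the mean of 3. The genes kcnf1b and kcnj19b lie apart between the groups, at 2.49 and 2.36 CPM per kilobase in RA against 10.0286 and 9.05 in DMSO, while kcnma1a, kcnc3a and kcnn1a lie close together.

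The highest levels per length belonged to genes of several classes rather than to a single family. First in DMSO was kcnip3a, which encodes a calcium-binding protein of the kcnip family, at 10.8 ± 3.49 CPM per kilobase in RA and 15.6 ± 3.41 in DMSO (SD, n = 3 each). Next were kcnma1a, the pore subunit of the large-conductance calcium-activated (BK) channel, at 12.0104 ± 0.762 in RA and 14.1 ± 1.30 in DMSO, and kcnj3a, a subunit of G protein-gated inward rectifiers, at 9.94 ± 0.344 in RA and 12.3 ± 2.54 in DMSO. They were followed in DMSO by the tandem-pore gene kcnk10b, kcnc3a, kcnf1b, kcnj19b and kcnn1a. Each neighbouring pair among the first 20 genes overlapped in range over the DMSO libraries, so the exact order is not resolved. The RA order was headed by kcnma1a, kcnc3a, kcnip3a and kcnj3a. Between the groups 7 genes were shared among the first 10. Genes kcnf1b, kcnj19b and kcnb2b left the first 10, at ranks 16, 19 and 23 in RA against 6, 7 and 10 in DMSO.

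Summed over the 80 genes, the potassium channel transcripts were lower in the RA libraries. They came to 422, 432 and 457 CPM in RA (replicates 6, 9 and 12), against 606, 520 and 498 CPM in DMSO (replicates 1, 4 and 10). The groups did not overlap, and the lowest DMSO library lay above the highest RA library. Such a sum follows the abundant genes. The median level of the 80 genes was not lower in RA (0.94 CPM per kilobase, against 0.903 in DMSO). Of the 73 genes tested below, 45 had a negative log2 fold change and 28 a positive one. Subfamilies differed in their sums. The kcnh genes summed to 29.4, 24.6 and 29.8 CPM in RA, against 47.4, 41.6 and 42 CPM in DMSO. The silent subunits summed to 15.3, 12.1 and 13.8 CPM in RA, against 24.4, 30.9 and 31.5 CPM in DMSO. The kcnb genes summed to 8.16, 9.64 and 9.72 CPM in RA, against 19, 15.8 and 13.7 CPM in DMSO. These sets did not overlap between the groups, and neither did kcnj (55.9 to 66.5 CPM in RA, 70.6 to 88.6 in DMSO) and kcnk (43.6 to 50.5 CPM in RA, 55.2 to 63.9 in DMSO). For all 80 genes, kcnh and the silent subunits the groups stayed apart when the gene that differed most in mean CPM was left out (kcnj19b, kcnh7 and kcnf1b). For kcnj, kcnk and kcnb they then overlapped. Without kcnj19b, kcnj summed to 55.7, 49 and 60.2 CPM in RA, against 64.9, 51.1 and 52 CPM in DMSO. Without kcnk10b, kcnk summed to 32.9, 32.9 and 40.3 CPM in RA, against 35.6, 40.8 and 40.7 CPM in DMSO. The separation of kcnb rested on kcnb2b in the same way. The ranges of kcna, kcnc, kcnd, kcnq, the ion-activated genes and the auxiliary genes overlapped. For kcnq the mean was 37.2 ± 4.33 CPM in RA and 34.3 ± 7.77 CPM in DMSO (SD, n = 3 each). No test was made on these sums, which are scores over the chosen genes. How often sums over other sets of genes stay apart is not given here.

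**Figure D2:**
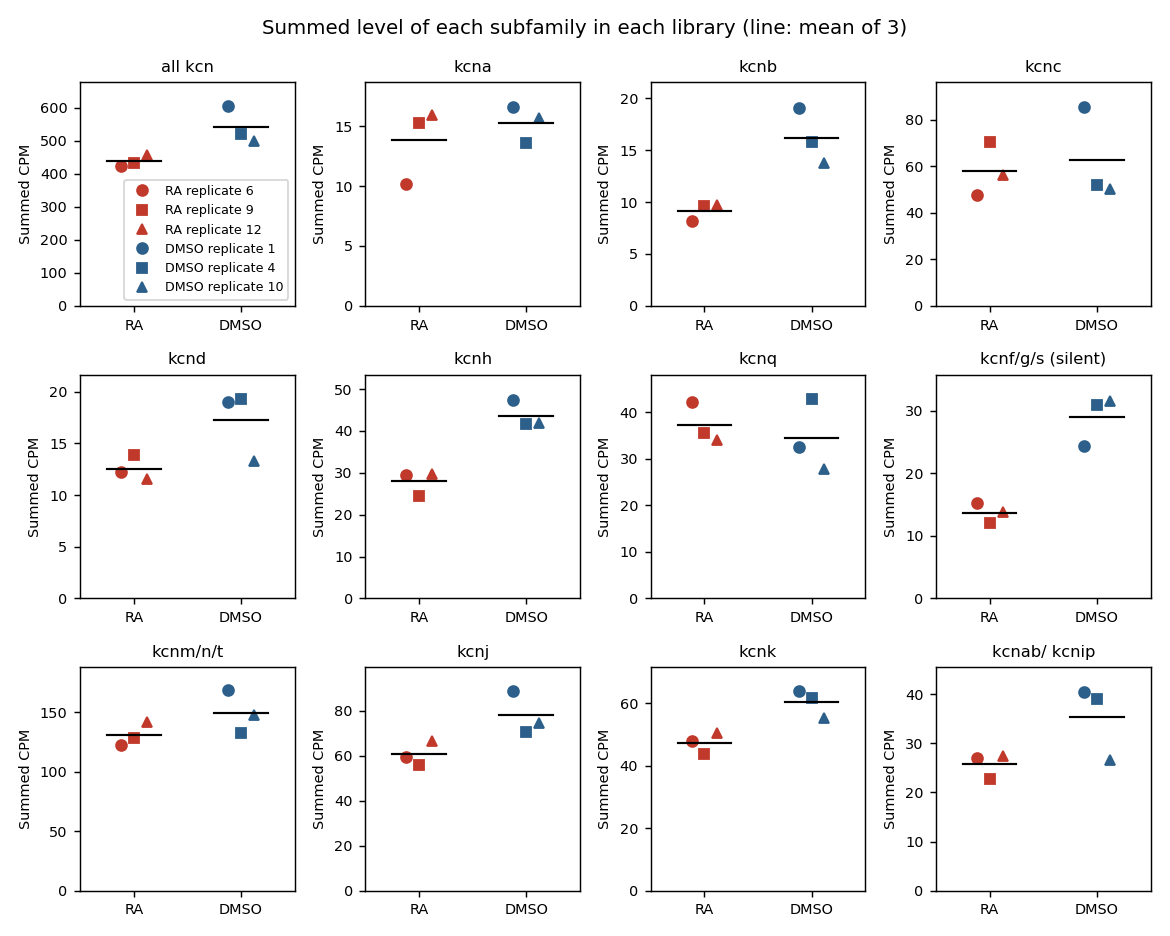
Summed CPM of all 80 kcn genes and of each subfamily in each library, with the mean of 3 libraries as a line and every axis starting at 0. In all kcn, kcnb, kcnh, the silent subunits, kcnj and kcnk every RA library lies below every DMSO library. In kcna, kcnc, kcnd, kcnq, the ion-activated and the auxiliary genes the groups overlap.

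Single genes were compared with edgeR's quasi-likelihood test on all genes that passed its filter on low counts, with Benjamini-Hochberg adjustment over all of them and a threshold of 0.05. Of the 80 genes 73 passed the filter. A single gene, kcnj19b, passed the threshold and fell in RA, which is 1.37% of the 73, where 0.353% of all 17270 tested genes were called lower and 0.799% in either direction. No kcn gene was called higher in RA by edgeR, DESeq2 or limma-voom. Over all genes edgeR called 0.446% higher and DESeq2 2.07%, so 0 of 73 lies near these shares. At an unadjusted p under 0.05 in edgeR, 13 of the 73 (17.8%) were lower in RA, against 4.94% of all tested genes, and 2 (2.74%) were higher, against 5.3%. In 17 of the 73 (23.3%) every RA library lay below every DMSO library, against 7.7% of all tested genes, and in 3 (4.11%) every RA library lay above, against 7.78%. A log2 fold change of -1 or lower was found for 13 genes (17.8%), against 3.36% of all tested genes, and of 1 or higher for 5 (6.85%), against 5.13%. These shares were not matched for level, and fold estimates of genes with few counts vary more. Among the 13 were kcng2 with 60 counts over the 6 libraries (SE 0.96) and kcnj2a with 103 (SE 0.99), but also kcnj19b with 1738 (SE 0.26). Of the 73 genes 45 (61.6%) lay below 0 and their median was -0.24, where 47.4% of all tested genes lay below 0 and the median was 0.02. Without RA replicate 12, where 75 kcn genes passed the filter, the kcn median was -0.41. Without DMSO replicate 1, where 76 passed, it was -0.13. These counts describe the genes that passed the filter, which a gene can pass through the group where it is high. Called by DESeq2 were 5 of the genes, all lower in RA (kcnj19b, kcnf1b, kcnh7, kcnb2b and kcnk10a), which is 6.85% of the 73, where it called 1.82% of all genes lower and 3.89% in either direction.

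**Figure D3:**
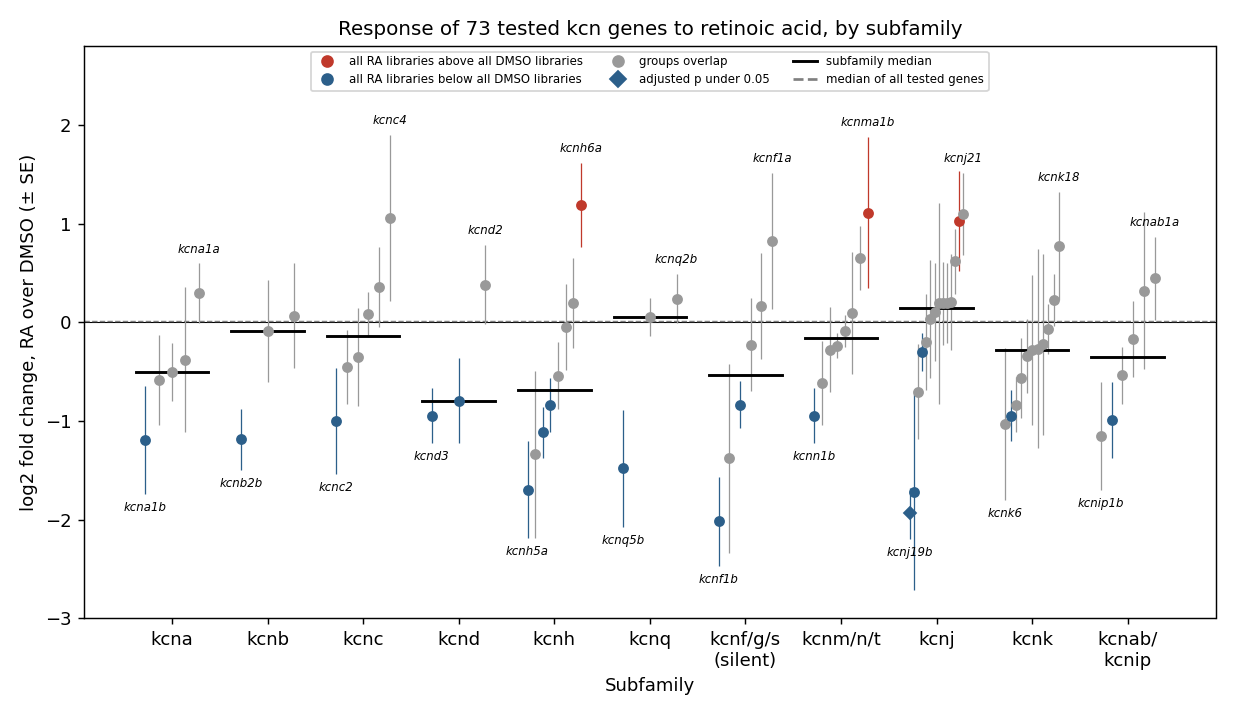
Log2 fold change of RA over DMSO with its standard error (edgeR) for the 73 tested kcn genes by subfamily. Blue points mark genes with every RA library below every DMSO library and red points the reverse, the diamond marks kcnj19b, which passed the test at -1.94, black lines are subfamily medians and the dashed line is the median of all tested genes at 0.02. The lowest point is grey in kcnk and the auxiliary genes and blue in every other subfamily, and the highest points of most subfamilies are grey.

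The gene that passed the test, kcnj19b, encodes an inward rectifier (ENSDARG00000062672, GRCz11 chromosome 12, 16062560 to 16084835, minus strand). It had 3.86, 6.96 and 6.28 CPM in RA (replicates 6, 9 and 12), against 23.7, 19.5 and 22.5 CPM in DMSO (replicates 1, 4 and 10). All 3 RA libraries lay far below the lowest DMSO library, and the DMSO libraries were close to each other. The means were 5.7 ± 1.63 CPM in RA and 21.9 ± 2.16 CPM in DMSO (SD, n = 3 each), and the counts were 62, 156 and 124 in RA against 485, 462 and 449 in DMSO. The log2 fold change was -1.94 (SE 0.26 and adjusted p = 0.0194 in edgeR). It stayed between -2.11 and -1.72 over 15 alternatives and passed in 11 of them, with adjusted p-values of 5.10e-10 (DESeq2) to 0.111 (edgeR). The call was lost without DMSO replicate 1, 4 or 10 (edgeR adjusted p = 0.111, 0.0934 and 0.0993) and without RA replicate 12 (0.0679).

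Its copy kcnj19a (ENSDARG00000059747, chromosome 3, 38793499 to 38859305) lay on the other side. It had 0.996, 1.29 and 1.11 CPM in RA, against 0.683, 0.338 and 0.652 CPM in DMSO, from 8 to 29 counts per library. Every RA library was above every DMSO library, but the log2 fold change of 1.03 (SE 0.50) did not pass (edgeR adjusted p = 0.564). Within a library the ratio of kcnj19b to kcnj19a counts was 3.88, 5.38 and 5.64 in RA, against 34.6, 57.8 and 34.5 in DMSO. This ratio does not depend on how libraries are scaled, and its groups were far apart.

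The other inward rectifiers lay on both sides of 0. A positive log2 fold change was found for 9 of the 14 tested kcnj genes, against 9080 of all 17270 tested genes, and the kcnj median was 0.15. Without RA replicate 9 the median was -0.10. The G protein-gated subunit kcnj3a had 22.1, 20.9 and 22.3 CPM in RA, against 33.2, 23.2 and 24 CPM in DMSO. The groups narrowly did not overlap, with DMSO replicate 1 highest, and the log2 fold change was -0.30 (SE 0.19 and adjusted p = 0.703 in edgeR). Its copy kcnj3b lay at -0.71 (SE 0.48), and the partner subunits kcnj6 and kcnj9 at 0.19 (SE 0.42) and 0.10 (SE 0.50). Gene kcnj21 had 8.72, 3.21 and 8.81 CPM in RA, against 3.17, 2.66 and 3.86 CPM in DMSO, at 1.09 (SE 0.42 and adjusted p = 0.404 in edgeR), and RA replicate 9 fell among the DMSO libraries. The pore subunit of the ATP-sensitive channel, kcnj11, lay at -0.20 (SE 0.49) and the related kcnj11l at 0.19 (SE 0.40). Of the exonic bases of kcnj11l, 743 of 2055 are shared with cd59b on the opposite strand, so its count is uncertain. Gene kcnj1b, whose mammalian counterpart works in the kidney, was among the more abundant, at 5.67, 11 and 7.59 CPM in RA, against 3.86, 6.16 and 5.82 CPM in DMSO (0.62, SE 0.33), with RA replicate 6 inside the DMSO range. The glial channel gene kcnj10a was near the floor, with 6 to 14 counts in RA and 0 to 18 in DMSO. Genes kcnj13 and kcnj14 lay at 0.21 (SE 0.49) and 0.03 (SE 0.60). Exons of kcnj13 share 661 of 6938 bases with an unnamed gene on the opposite strand. Gene kcnj2a, a strong inward rectifier, had 13, 0 and 8 counts in RA against 21, 20 and 41 in DMSO.

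Silent subunits held the most negative log2 fold change of the set. Gene kcnf1b (ENSDARG00000027285, chromosome 13, 32993911 to 32995365, minus strand) had 4.67, 1.74 and 4.3 CPM in RA, against 7.86, 17.5 and 17.9 CPM in DMSO. The groups did not overlap, with DMSO replicate 1 well below the other DMSO libraries and RA replicate 9 lowest. The log2 fold change was -2.02 (SE 0.45) and did not pass (edgeR adjusted p = 0.117). Over its 14 alternatives the value was -2.32 to -1.69 and the adjusted p 0.000546 (DESeq2) to 0.38 (edgeR), and 3 alternatives passed. Gene kcng1 had 6.04, 5.13 and 5.11 CPM in RA, against 11.4, 8.19 and 9.48 CPM in DMSO, at -0.84 (SE 0.24 and adjusted p = 0.211 in edgeR). Both are known to modify kcnb channels. The remaining silent subunits were low, with at most 3.05 CPM in any library (kcng4a in RA replicate 6), and their groups overlapped. Genes kcnf1a, kcng2, kcng4a and kcns3a had log2 fold changes of 0.82 (SE 0.69), -1.38 (SE 0.96), -0.23 (SE 0.47) and 0.16 (SE 0.54).

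Among the kcnb genes, which encode delayed rectifiers of the soma and proximal dendrites, kcnb2b had the most negative log2 fold change. Gene kcnb2b (ENSDARG00000088842, chromosome 24, 13361846 to 13566015, minus strand) had 4.67, 7.77 and 4.15 CPM in RA, against 16, 11.3 and 10.6 CPM in DMSO. The groups were separate, and the log2 fold change was -1.19 (SE 0.31 and adjusted p = 0.174 in edgeR). It passed in 2 of 14 alternatives (adjusted p range 0.0167 with DESeq2 to 0.48 with edgeR). The low copy kcnb2a lay at -0.09 (SE 0.51).

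**Figure D4:**
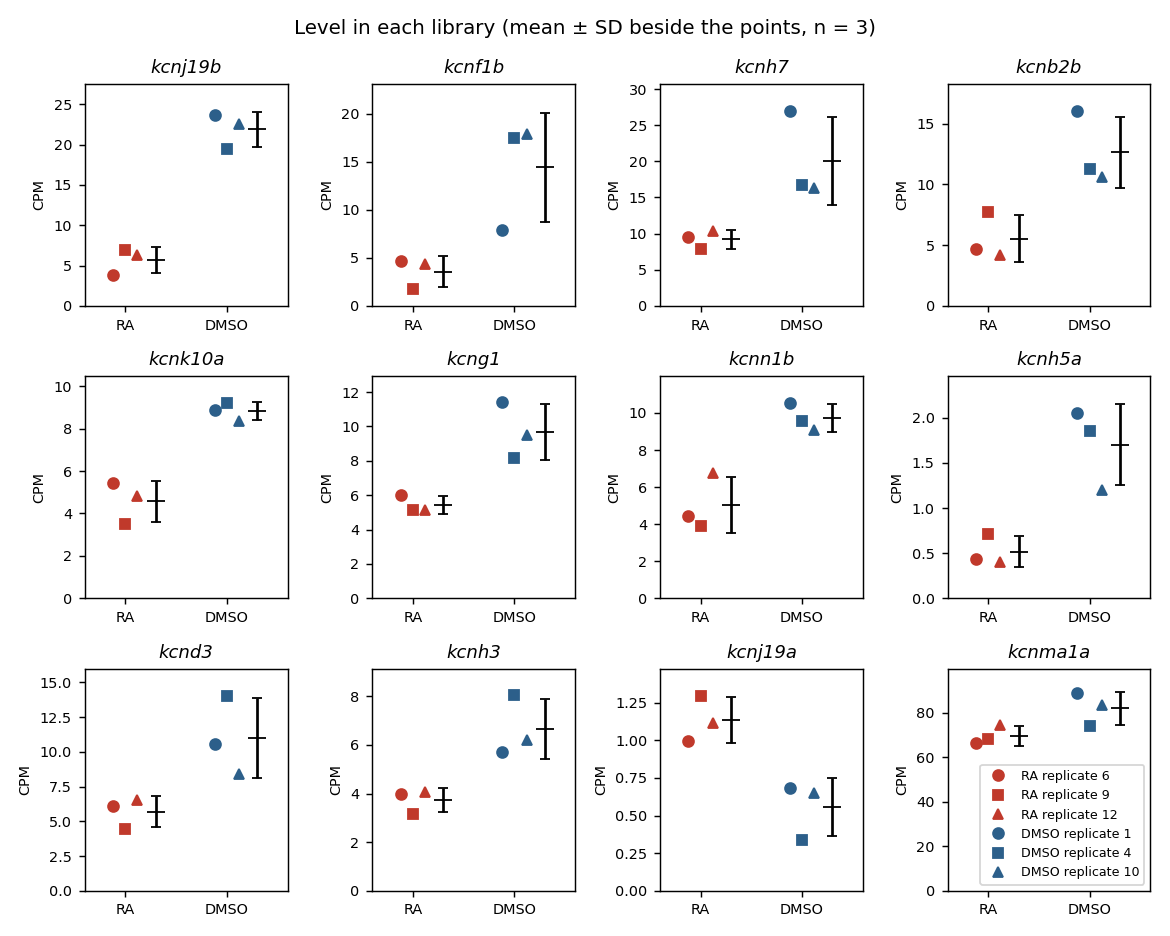
CPM in each library of the 10 kcn genes with the smallest p-value, of kcnj19a and of the abundant kcnma1a, with mean ± SD of 3 libraries beside the points and every axis starting at 0. In the 10 genes from kcnj19b to kcnh3 every RA library lies below every DMSO library, in kcnj19a every RA library lies above, and in kcnma1a the highest RA library, at 74.6 CPM, lies just above the lowest DMSO library, at 73.8 CPM.

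The kcnh family, relatives of the fly ether-a-go-go channel, had 6 of 8 tested genes below 0, against 47.4% of all tested genes. Its median log2 fold change was -0.69. Gene kcnh7, of the erg group whose slow currents limit repetitive firing, was the most abundant. It had 9.46, 7.81 and 10.4 CPM in RA, against 27, 16.8 and 16.3 CPM in DMSO. All RA libraries were below the lowest DMSO library, and the log2 fold change was -1.12 (SE 0.26 and adjusted p = 0.123 in edgeR, range over 15 alternatives 0.00386 with DESeq2 to 0.285). Gene kcnh5a of the eag group was low, with 7, 16 and 8 counts in RA against 42, 44 and 24 in DMSO, at -1.70 (SE 0.50 and adjusted p = 0.226 in edgeR). Gene kcnh3 of the elk group had 3.98, 3.17 and 4.05 CPM in RA, against 5.71, 8.06 and 6.22 CPM in DMSO, at -0.84 (SE 0.27 and adjusted p = 0.295 in edgeR). In both genes the groups did not overlap.

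A second erg gene, kcnh6a, lay on the opposite side of kcnh7. It had 5.85, 2.54 and 4.2 CPM in RA, against 1.22, 2.07 and 2.21 CPM in DMSO, with every RA library higher. The log2 fold change was 1.19 (SE 0.43) without passing (edgeR adjusted p = 0.362). The remaining erg gene kcnh2b was close to 0, at -0.05 (SE 0.43). The eag genes kcnh1a and kcnh1b lay at 0.19 (SE 0.45) and -0.54 (SE 0.34), and the elk gene kcnh8 at -1.34 (SE 0.85). Exons of kcnh1a share 124 of 3019 bases with plb1 on the opposite strand. No kcnh gene passed in edgeR or limma-voom, and DESeq2 called kcnh7 (1 of 8 tested, against 1.82% of all genes called lower). In edgeR 3 of the 8 had an unadjusted p under 0.05 and were lower, against 4.94% of all tested genes. At the same threshold 1 was higher, against 5.3%.

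The kcnd genes encode A-type channels, whose fast inactivation delays firing, and the kcnip proteins bind them and set their surface number. Gene kcnd3 (ENSDARG00000056101, chromosome 8, 28065803 to 28232817) had 6.1, 4.46 and 6.53 CPM in RA, against 10.5, 14 and 8.38 CPM in DMSO. The groups were separate, and the log2 fold change was -0.95 (SE 0.28 and adjusted p = 0.229 in edgeR). Gene kcnd1, at 0.658 to 1.18 CPM in RA and 1.61 to 1.81 CPM in DMSO, did not overlap either (-0.79, SE 0.44), while kcnd2 overlapped and lay at 0.38 (SE 0.40). Of the exonic bases of kcnd3, 114 of 3361 are shared with a clone-named gene on the opposite strand. All 3 tested kcnip genes had negative log2 fold changes, as had 47.4% of all tested genes. The abundant kcnip3a had 18.6, 9.42 and 16.4 CPM in RA, against 23.1, 25.1 and 16.2 CPM in DMSO, at -0.54 (SE 0.29 and adjusted p = 0.626 in edgeR). Its groups overlapped, since RA replicates 6 and 12 lay above DMSO replicate 10. Gene kcnip4a had 20, 28 and 36 counts in RA against 45, 81 and 60 in DMSO (-0.995, SE 0.39), and kcnip1b had 19, 16 and 48 counts in RA against 99, 64 and 42 in DMSO (-1.15, SE 0.55). The kcnab genes, which encode cytoplasmic beta subunits of kcna channels, overlapped throughout, at -0.17 (SE 0.39) for kcnab2a, 0.44 (SE 0.42) for kcnab1a and 0.32 (SE 0.80) for kcnab1b.

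Shaker-type kcna channels, which act at low threshold along axons, were present at low levels. The most abundant, kcna1a, had 5.35, 9.78 and 9.01 CPM in RA, against 5.86, 5.78 and 8.08 CPM in DMSO, with overlapping groups and the value 0.30 on the log2 scale (SE 0.30 and adjusted p = 0.865 in edgeR). Its copy kcna1b had 8, 8 and 16 counts in RA, against 37, 22 and 22 in DMSO, and did not overlap (-1.20, SE 0.55, edgeR adjusted p = 0.516). Genes kcna2b and KCNA2 lay at -0.50 (SE 0.30) and -0.58 (SE 0.46), and kcna4, which inactivates rapidly in mammals, at -0.38 (SE 0.73). Of the 5 tested kcna genes none had an unadjusted p under 0.05 in edgeR, against 10.2% of all tested genes. None was called by DESeq2, against 3.89% of all genes, or by limma-voom.

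The kcnc genes, whose fast high-threshold currents keep action potentials brief, showed no common direction, with 3 of 6 above 0. Gene kcnc3a had 22.1, 38.7 and 30.8 CPM in RA, against 32.5, 25 and 29.3 CPM in DMSO, at 0.08 (SE 0.23), and its sign changed in 3 of 15 alternatives. Gene kcnc1a varied widely within the groups, at 9.9, 22.5 and 12 CPM in RA, against 33.9, 13.2 and 9.53 CPM in DMSO, at -0.35 (SE 0.50). Its copy kcnc1b had 9.21, 4.42 and 9.31 CPM in RA, against 14.9, 9.28 and 7.22 CPM in DMSO, at -0.45 (SE 0.38). The median of the 6 genes was -0.14. It was 0.27 without DMSO replicate 1, which held the highest values of kcnc1a and kcnc1b, and 0.04 without RA replicate 6. Low genes were kcnc2 (10, 21 and 6 counts in RA, 24, 34 and 23 in DMSO) and kcnc4 (41, 10 and 40 counts in RA, 3, 28 and 21 in DMSO, at 1.06, SE 0.84). The copy kcnc3b lay at 0.36 (SE 0.41).

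The kcnq genes carry the slow M-current that restrains repetitive firing. Both abundant members were similar in the groups. Gene kcnq2b had 26.2, 20.2 and 20.8 CPM in RA, against 16.7, 25.6 and 14.5 CPM in DMSO, at 0.24 (SE 0.25 and adjusted p = 0.871 in edgeR). Gene kcnq3 had 15.7, 14.8 and 12.9 CPM in RA, against 14.2, 15.6 and 12.1 CPM in DMSO, at 0.05 (SE 0.19 and adjusted p = 0.981 in edgeR). The SE of kcnq3 was among the smallest of the set, though a p above the threshold does not show equality. Gene kcnq5b was low, with 2, 10 and 6 counts in RA against 19, 19 and 16 in DMSO (-1.48, SE 0.60, edgeR adjusted p = 0.443). Gene kcnq1.2 did not pass the filter and had 1, 0 and 0 counts in RA against 12, 20 and 4 in DMSO. Its RA counts lie under a floor of 3 counts per library (0.134 to 0.188 CPM of the unscaled total in RA), so no fold is given.

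Calcium-activated channels included the most abundant gene of the set in CPM. Gene kcnma1a (ENSDARG00000079840, chromosome 13, 16521898 to 16886118) had 66.2, 68 and 74.6 CPM in RA, against 88.7, 73.8 and 83.4 CPM in DMSO. RA replicate 12 just exceeded DMSO replicate 4, and the log2 fold change of -0.24 (SE 0.13) did not pass (edgeR adjusted p = 0.635). The gene kcnn1a encodes a small-conductance channel, a class that underlies the afterhyperpolarization, and lay at 41.5, 43.8 and 46.7 CPM in RA, against 55.5, 39.7 and 45 CPM in DMSO (-0.09, SE 0.16). Its copy kcnn1b (ENSDARG00000023546, chromosome 8, 13244371 to 13315567) had 4.42, 3.93 and 6.78 CPM in RA, against 10.5, 9.58 and 9.08 CPM in DMSO. The kcnn1b groups did not overlap, at -0.95 (SE 0.28 and adjusted p = 0.223 in edgeR). Genes kcnn2 and kcnn3 lay on opposite sides at 0.65 (SE 0.33) and -0.62 (SE 0.43), with overlapping groups. The intermediate-conductance gene kcnn4 lay at 0.09 (SE 0.62) and the sodium-activated kcnt1b at -0.28 (SE 0.43). The second BK gene kcnma1b had 12, 26 and 21 counts in RA against 13, 16 and 1 in DMSO, at 1.11 (SE 0.76 and adjusted p = 0.746 in edgeR).

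The tandem-pore kcnk genes had 9 of 11 tested members below 0, against 47.4% of all tested genes. Their median was -0.28. That median was -0.58 without RA replicate 12, and -0.15, -0.17 and -0.18 without RA replicate 9, DMSO replicate 4 and DMSO replicate 1. Both kcnk10 copies, which encode leak channels gated by stretch and lipids, were lower in RA libraries. Gene kcnk10a (ENSDARG00000062849, chromosome 20, 10166297 to 10220280) had 5.42, 3.53 and 4.81 CPM in RA, against 8.89, 9.2 and 8.38 CPM in DMSO. The groups were separate and tight, at -0.95 (SE 0.25 and adjusted p = 0.184 in edgeR, range over 14 alternatives 0.0311 with DESeq2 to 0.499). Gene kcnk10b, the most abundant tandem-pore gene, had 14.9, 10.7 and 10.2 CPM in RA, against 28.3, 21 and 14.5 CPM in DMSO. RA replicate 6 just exceeded DMSO replicate 10, and the log2 fold change was -0.83 (SE 0.28 and adjusted p = 0.318 in edgeR). The related kcnk2b lay at -0.57 (SE 0.40). Its exons share 161 of 1470 bases with smyd2b on the same strand.

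Other leak channels lay closer to 0 or were low. The kcnk5 copies, which encode channels opened by alkaline pH, lay at 0.23 (SE 0.26) for kcnk5a and -0.34 (SE 0.38) for kcnk5b, and kcnk1b lay at -0.07 (SE 0.26). Genes kcnk18 and kcnk13a lay at 0.78 (SE 0.55) and -0.28 (SE 0.76). Gene kcnk6 was low, with 12, 7 and 2 counts in RA against 13, 11 and 25 in DMSO (-1.03, SE 0.77). Of its exonic bases 303 of 4113 are shared with a clone-named gene on the opposite strand. Of the genes grouped by sequence with the acid-sensitive channels, kcnk9 had 9, 0 and 15 counts in RA, against 12, 16 and 6 in DMSO. Gene kcnk15 had 28, 1 and 45 counts in RA, against 42, 30 and 28 in DMSO. Both were near 0 in RA replicate 9. The third gene of that group, kcnk3b, did not pass the filter. It had 7, 56 and 33 counts in RA against 0, 3 and 5 in DMSO, so that RA replicate 9 was its highest library. The DMSO mean lies under the floor of 3 counts, so no fold is given, and in a fit without the filter the edgeR adjusted p was 0.171. Gene kcnk2a, also outside the filter, had 9, 1 and 30 counts in RA against 4, 2 and 1 in DMSO.

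The remaining members outside the filter were of several classes. The elk gene kcnh4a had 4, 2 and 0 counts in RA, against 10, 4 and 14 in DMSO. The G protein-gated subunit gene kcnj5 had 2, 0 and 25 counts in RA, against 8, 10 and 4 in DMSO. Both overlapped between the groups, and kcnj5 rested on RA replicate 12. KCNMB2, a beta subunit gene of the BK channel, had 1, 14 and 14 counts in RA, against 0, 1 and 7 in DMSO, and KCNIP1, listed on an unplaced scaffold, had 7, 8 and 5 counts in RA, against 15, 13 and 6 in DMSO.

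The genome duplication of teleost fishes, which include zebrafish, left many channel genes as a and b copies, and 13 pairs had both copies tested. Their log2 fold changes had opposite signs in 6 pairs and the same sign in 7. The ratio of b to a counts within a library did not overlap between the groups in 5 of the 13 pairs. The same share over pairs of other genes is not given here, so this count has no background. In kcnj19 it was lower in RA, as given above. In kcnf1 it was 7.5, 0.78 and 9.44 in RA, against 16.1, 29.6 and 22.3 in DMSO. In kcnn1 it was 0.107, 0.0896 and 0.145 in RA, against 0.19, 0.241 and 0.202 in DMSO. In kcna1 it was 0.093, 0.0365 and 0.0899 in RA, against 0.308, 0.161 and 0.137 in DMSO. In kcnma1 it was higher in RA, at 0.0113, 0.0171 and 0.0143, against 0.00716, 0.00914 and 0.000601 in DMSO. Several of these ratios rest on a copy with few counts. Gene kcnf1a had 10, 50 and 9 counts in RA, against 10, 14 and 16 in DMSO. Gene kcna1b had 8, 8 and 16 counts in RA, and kcnma1b had 1 count in DMSO replicate 10. An exact two-sided permutation test of the mean log2 ratio gave p = 0.1 in each of the 5 pairs, the smallest value 3 against 3 libraries allow, and 0.26 after Benjamini-Hochberg adjustment over the 13 pairs. In contrast to these, the ratio of kcnk10b to kcnk10a was 2.76, 3.04 and 2.12 in RA, against 3.18, 2.28 and 1.74 in DMSO, with full overlap. Fragments that map to several places were left out of the counts, so near-identical stretches of a pair are not counted for either copy.

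**Figure D5:**
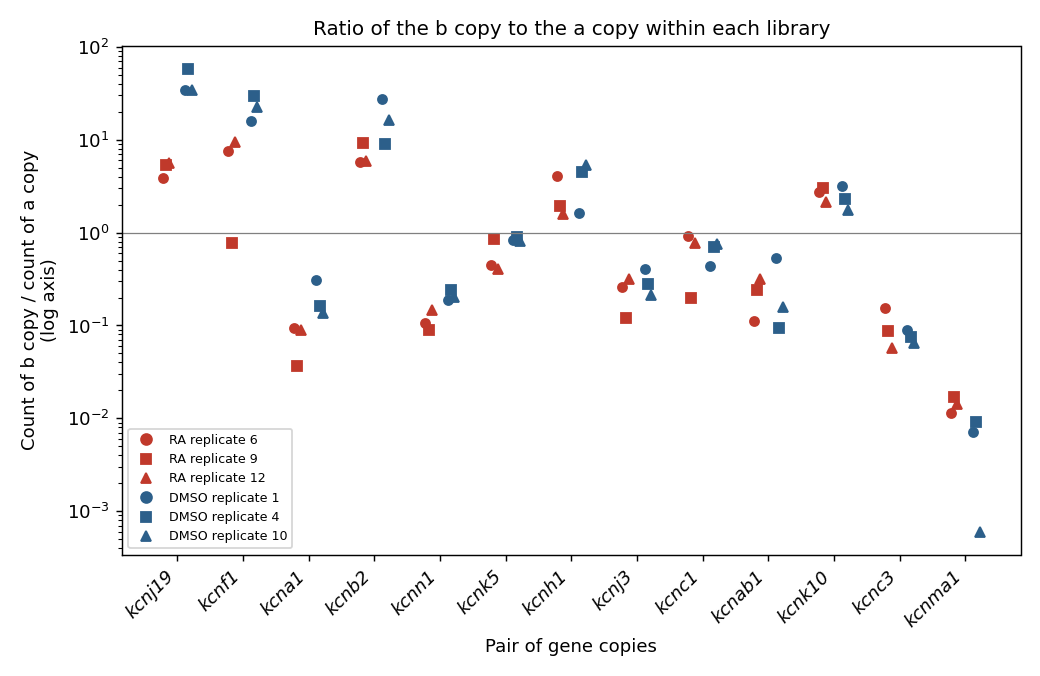
Count of the b copy divided by the count of the a copy within each library, on a log axis, for the 13 pairs of kcn gene copies with both tested (red RA, blue DMSO). The pairs run from kcnj19, where the ratio is 3.88 to 5.64 in RA and 34.5 to 57.8 in DMSO, to kcnma1, where every RA library lies above every DMSO library.

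Genes that work with these channels were read from a list of partners and of related ion transport genes, covering auxiliary subunits, adhesion and scaffold proteins at sites of channel clustering, hcn pacemaker channels, potassium-chloride cotransporters and the sodium-potassium pump. Of 58 entries 48 matched a gene and 44 were tested. None passed in edgeR or in plain limma-voom, 4 (9.09%) passed with DESeq2 (1 higher and 3 lower), against 3.89% of all genes, and 8 (18.2%) had an unadjusted p under 0.05 in edgeR (2 higher and 6 lower), against 10.2%. The median log2 fold change was 0.01, with 22 genes on each side of 0. Pump subunits lay on both sides. The beta subunit gene atp1b3a had 190, 209 and 235 CPM in RA, against 351, 317 and 307 CPM in DMSO, at -0.62 (SE 0.12 and adjusted p = 0.078 in edgeR). The alpha subunit gene atp1a3b had 169, 111 and 192 CPM in RA, against 86.9, 57.2 and 89.6 CPM in DMSO, at 1.02 (SE 0.24 and adjusted p = 0.132 in edgeR), and its copy atp1a3a lay at -0.39 (SE 0.14). Genes of the contactin, contactin-associated, LGI and ADAM families, whose members include proteins found with kcna channels on axons, lay on both sides of 0. Those whose groups did not overlap were all lower in RA. Every RA library lay below every DMSO library for cntn2 at -0.93 (SE 0.24), lgi1b at -0.56 (SE 0.14), adam22 at -0.43 (SE 0.20) and cntnap2b at -0.40 (SE 0.15). The groups overlapped for the abundant lgi1a at -0.07 (SE 0.13), for adam23a at -0.03 (SE 0.18), and for cntnap2a, lgi2a, lgi2b and lgi3 at 0.27 (SE 0.26), 0.31 (SE 0.35), 0.78 (SE 0.74) and -0.12 (SE 1.00). The pacemaker gene hcn2b lay above in every RA library, at 0.33 (SE 0.22), and the neuronal cotransporter gene slc12a5a below, at -0.56 (SE 0.27).

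Among motor neuron identity genes, tbx20 fell to 64, 68.8 and 69.9 CPM in RA, against 242, 206 and 188 CPM in DMSO (-1.65, SE 0.13 and adjusted p = 0.00482 in edgeR). The other identity genes did not pass. The transcription factor gene phox2a had 465, 787 and 629 CPM in RA, against 1465, 993 and 1344 CPM in DMSO (-1.01, SE 0.22 and adjusted p = 0.0936 in edgeR). Gene isl1a, whose regulatory sequence drives the sorted label, had 985, 1256 and 1466 CPM in RA, against 2385, 1650 and 1857 CPM in DMSO (-0.67, SE 0.18 and adjusted p = 0.196 in edgeR). Genes phox2bb and isl2b also did not overlap, at -0.50 (SE 0.12) and -0.59 (SE 0.21), while isl2a, phox2ba and tbx2b overlapped, at -0.09 (SE 0.22), -0.06 (SE 0.55) and -0.20 (SE 0.16). The cholinergic genes slc18a3a, slc5a7a and chata overlapped too, at 0.07 (SE 0.25), 0.11 (SE 0.17) and -0.06 (SE 0.23). Of all tested genes 47.4% lay below 0. Of the 11 progenitor and glia genes 7 were above 0 and 4 below, with a median log2 fold change of 0.14. Of these gfap alone passed and rose, at 124, 163 and 131 CPM in RA, against 80.2, 66.7 and 61.9 CPM in DMSO (1.00, SE 0.16 and adjusted p = 0.0352 in edgeR). Every RA library also lay above every DMSO library for s100b at 1.70 (SE 0.46) and glula at 1.16 (SE 0.33). Neither passed (edgeR adjusted p = 0.191 and 0.208). The groups overlapped for the rest above 0, which were sox3, her4.1, slc1a2b and slc1a3b. On the other side of 0 lay fabp7a at -0.54 (SE 0.21), sox2 at -0.39 (SE 0.22), notch1a at -0.27 (SE 0.21) and her15.1 at -0.07 (SE 0.32), with overlapping groups. Their part in the levels of the kcn genes was not tested.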

How the data were processed

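RNA of sorted Kaede-positive hindbrain cells was sequenced in 3 RA and 3 DMSO libraries. The authors deposited raw counts of fragments per gene, made per the file headers by featureCounts 1.6.0, which counted read pairs unstranded over Ensembl 95 genes on GRCz11. The submitters' processing notes name bcl2fastq 1.8.4, STAR 2.5.2a and Subread 1.5.0, a version that differs from that in the headers. With the options in the headers, fragments over several genes or places are dropped, and antisense fragments count toward a gene. Trimming and duplicates are not given in the sources used here.

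Of 32520 identifiers 29201 had a symbol. Among the 80 members, 24 symbols stood in RefSeq (GRCz12tu, used for names alone), 53 orthologue symbols were replaced by the single RefSeq symbol of that name on the same chromosome, and 3 were kept. Exons of 9 members share bases with another gene. Coordinates are the outermost exon ends in the deposited annotation.

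Tests used edgeR 4.0.16 in R 4.3.3 with filterByExpr, TMM scaling and a model of intercept and treatment on all 6 libraries. P-values were two-sided. Standard errors were taken as log2 fold change over the root of F. The common biological coefficient of variation was 0.315. The test was checked on simulated counts. Alternatives were other scalings and filters, a robust dispersion, limma-voom 3.58.1 (plain and quality-weighted), DESeq2 1.42.0, and leaving out each library. Pair ratios were tested with scipy 1.17.1 after adding 0.5 to each count. Libraries hold no molecular identifiers, so floors of 3 counts cover counting error only.

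Members and lists were chosen with earlier results of these data known. Full values were given for genes past the threshold and their copies, the 10 smallest p-values, and in each subfamily the highest level and the largest absolute log2 fold change (24 genes). Other members were chosen after their values were seen. The single values of 1 member are not reported here.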

Additional observations from a re-analysis of the deposited data

How the results depend on the processing

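No paired analysis was possible because the groups share no replicate number. The 1 kcn call became 2 with no filter, 5 with DESeq2 and 3 with quality weights, and 0 to 1 when a library was left out. The 138 calls over all genes became 276, 671 and 394 in the same settings, and 9 (without DMSO replicate 4) to 325 (without RA replicate 9) with a library left out. The cause was not tested. With no filter, which adds low genes, the median log2 fold change was -0.86 for kcnh, -0.74 for kcnq and -0.56 for the auxiliary genes. With a filter at a mean of 10 CPM, which leaves 11 kcn genes and only 1 or 2 in a subfamily, the value was -1.13 for kcnh (kcnh7 alone), -1.13 for kcnj (kcnj19b and kcnj3a), -0.84 for kcnk (kcnk10b alone) and -0.55 for the auxiliary genes (kcnip3a alone). The silent subunits lay at -0.60 with limma-voom and -0.44 with quality weights. With a library left out the filter was applied again, and 75 to 78 kcn genes were tested, against 73 in the main fit. All medians given with a library left out therefore mix the change of library with a change of tested genes. With a library left out, the median spanned -0.41 to -0.13 for all kcn genes, -0.71 to -0.38 for kcna, -0.57 to 0.20 for kcnb, -0.29 to 0.27 for kcnc, -0.94 to -0.57 for kcnd, -0.84 to -0.58 for kcnh, -0.95 to 0.14 for kcnq, -0.82 to -0.50 for the silent subunits, -0.35 to -0.031 for the ion-activated genes, -0.10 to 0.16 for kcnj, -0.58 to -0.15 for kcnk and -0.74 to -0.17 for the auxiliary genes. Signs changed for kcnc3a (-0.053 with quality weights, -0.14 to 0.26 with a library left out) and for kcnq3 (-0.044 to 0.14 with a library left out). The other 22 named genes kept theirs. A minimum of 10 or 100 counts gives 100 or 62 members. Without length, 7 of the first 10 genes by DMSO level remained. Leaving out the member that differed most from each subfamily sum was chosen after seeing the data.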
